A study of Mus musculus with 12 samples.

Results

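The mitochondrial pyruvate carrier, the pyruvate dehydrogenase complex and its kinases Pdk2 and Pdk4 were followed in mouse muscle fibres by RNA sequencing. The 9 genes were taken by name from the 56162 features of the deposited tables, and all 9 passed the filter on low counts together with 11747 genes in all. Each of 4 groups held 3 libraries from male C57BL/6J mice labelled as 8 weeks of age. Type I trained libraries came from slow fibres of the soleus of mice that ran on a treadmill for 6 weeks, on 5 days a week, for 60 min at 12 to 16 m/min, and that were killed 3 days after the last run. Type I untrained libraries came from the same muscle of mice without that running. Type IIb trained and type IIb untrained libraries came from fast fibres of the extensor digitorum longus of mice with and without the running. Fibres of soleus were freed by 90 min of digestion in collagenase and those of extensor digitorum longus by 60 min, so fibre type, muscle and digestion time cannot be told apart. One piece of each cut fibre served to identify its myosin heavy chain protein, and the other was sequenced after amplification.

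Pyruvate made by glycolysis crosses the inner mitochondrial membrane through a carrier built from Mpc1 and Mpc2. In the matrix, the pyruvate dehydrogenase complex turns it into acetyl-CoA for the citric acid cycle: Pdha1 and Pdhb form the E1 decarboxylase, Dlat is the E2 acetyltransferase, Pdhx anchors E3 to the complex, and Dld is the E3 dehydrogenase that other mitochondrial complexes also use. The kinases Pdk1 to Pdk4 phosphorylate E1 alpha and switch the complex off, the phosphatases Pdp1 and Pdp2 switch it on again, and in muscle Pdk4 is known for its induction by fasting and by fat use.

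Library totals ran from 8026397 to 24995288 counts, and genes with at least 10 counts numbered 3636 to 14428. Fibre markers went with the labels: the 5 type I markers summed to between 24434 and 46144 CPM (counts scaled to library size) in type I libraries and to at most 30.5 CPM in type IIb libraries. The 5 type IIb markers summed to at most 4193 CPM in type I libraries and to between 79934 and 156566 CPM in type IIb libraries. In 3 libraries the summed level of 7 endothelial markers stood apart: type I untrained replicates 1 and 3, with 584 and 339 CPM, and type IIb trained replicate 3, with 127 CPM. In the other 9 libraries this sum was at most 35.9 CPM, and all 7 markers were at 0 in type IIb untrained libraries. Markers of other cell types were also highest in type I untrained fibres: replicate 3 had 8825 CPM of summed fibroblast and 1067 CPM of summed mural markers, and replicate 1 had 1616 CPM of erythroid and 1030 CPM of adipocyte markers. The mitochondrial share of counts ran from 5.86% to 34.7% within type I trained libraries. Type IIb untrained replicate 1 and type IIb trained replicate 1 had the fewest genes, 3636 and 4291. Fewer cells of a type and less RNA per cell cannot be told apart in these lysates.

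Pdk4 differed most between the fibre types among the 9 genes. Its mean level was 489 ± 397 CPM in type I libraries and 45.6 ± 42.1 CPM in type IIb libraries (SD, n = 6 each), with CPM scaled by TMM normalisation here and for every single gene. Type I fibres exceeded type IIb fibres by a fitted 3.35 ± 1.06 (SE) on the log2 scale, which missed the threshold of an adjusted p under 0.05 (edgeR quasi-likelihood test, Benjamini-Hochberg adjusted p = 0.104). None of the 9 genes was called in this comparison by that test, 0 of 9 against 1.93% of all genes tested, and none was without overlap between the fibre types, 0 of 9 against 3.57%. Pdk4 was the 1 gene of the 9 with an unadjusted p under 0.05, which 16.9% of all genes had. DESeq2 called Pdk4 here (adjusted p = 0.0209), as it did 916 genes higher and 182 lower in type I fibres of the 11747 tested. The carrier and the subunits of the complex had fitted differences between -0.38 (Pdhx) and 0.41 (Pdhb) on the log2 scale, where the median of all genes was 0.60.

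**Figure D1:**
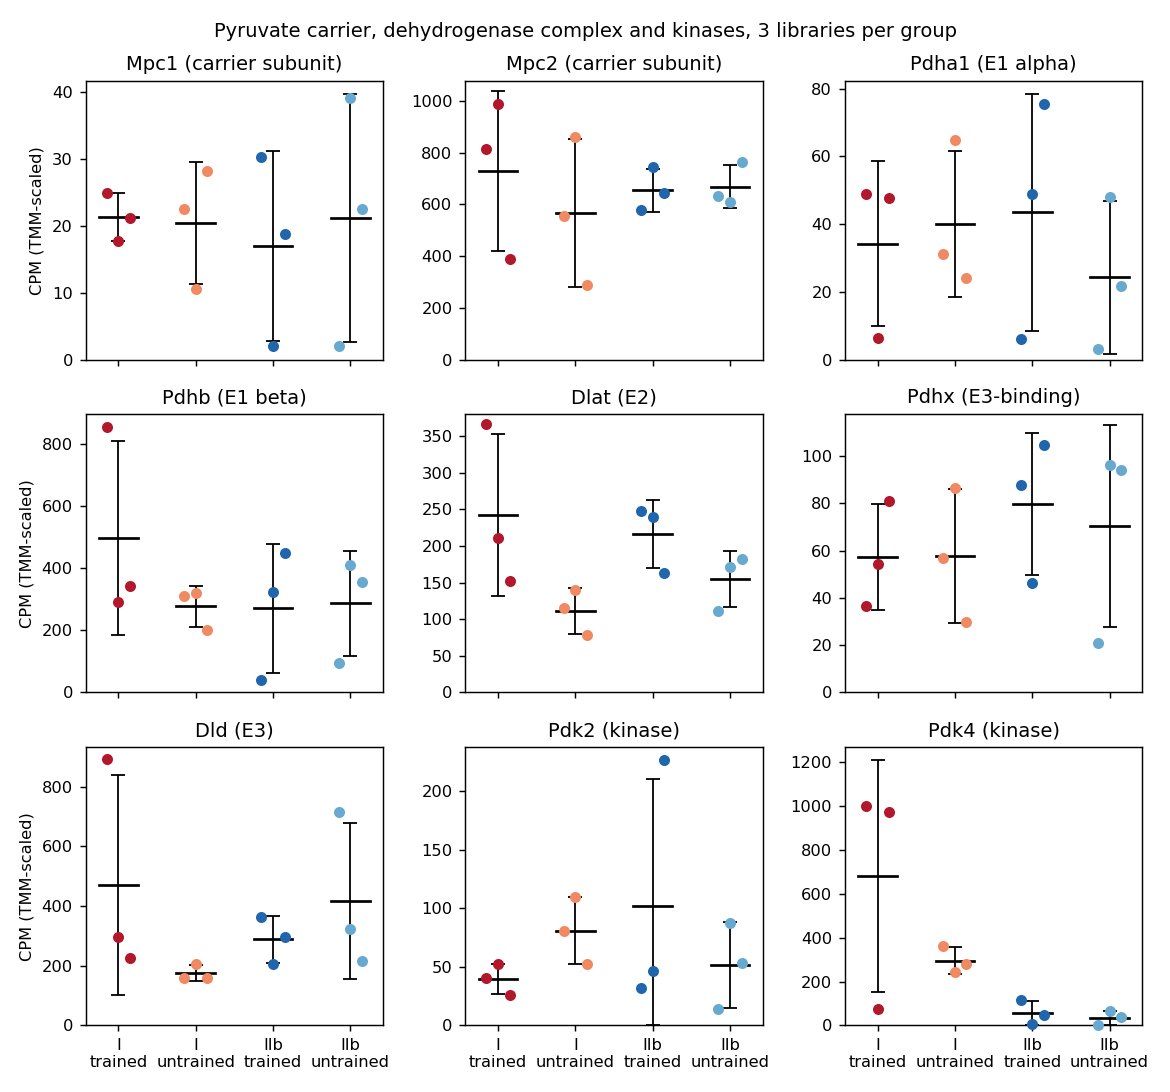
Level of each of the 9 genes in CPM (TMM-scaled, linear axis from 0) in each library. Points are the 3 libraries of a group, the line is their mean and the bars are the SD, cut at 0 where it would pass below. Pdk4 has 2 type I trained libraries near 1000 CPM and at most 116 CPM in a type IIb library, whereas the levels of Mpc2 stay between 289 and 988 CPM in all 12 libraries.

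Mpc1 (ENSMUSG00000023861, mm10 chromosome 17, 8282904 to 8297661, plus strand) is one of the 2 carrier subunits, and its reads were hard to place. Its coding sequence of 330 bases matches the whole of Mpc1-ps (ENSMUSG00000091498, chromosome 12, 110858565 to 110858894, minus strand), a processed pseudogene, at all but 1 base. The first 60 coding bases of both are printed from the GENCODE M21 transcripts because they hold the 1 substitution, G41A, counted from the A of the start codon as 1, with Mpc1 as the reference and the differing base in capitals.
Mpc1: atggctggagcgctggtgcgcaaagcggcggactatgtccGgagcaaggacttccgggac
Mpc1-ps: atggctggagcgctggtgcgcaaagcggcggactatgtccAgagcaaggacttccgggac
The longest stretch without a difference was 289 bases. The deposited table gave 3665 counts to Mpc1 and 5144 to Mpc1-ps over the 12 libraries, and Mpc1-ps held 47.2% to 70.3% of their summed counts in a library. How the authors' counting split such reads is not given in the sources used here, so each level of Mpc1 is uncertain. Exon sequence that Mpc1 shares with 4930506C21Rik on the opposite strand came to 23.1% of its length, and the libraries do not mark strand.

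**Figure D2:**
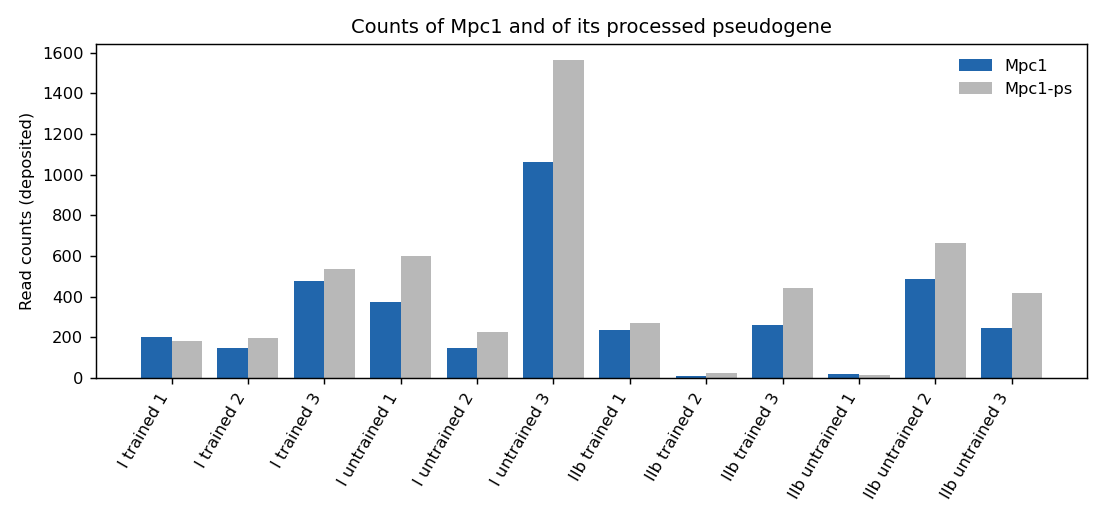
Deposited read counts (linear axis from 0) of Mpc1 and of its processed pseudogene Mpc1-ps in each of the 12 libraries, as paired bars. The 2 features rise and fall together, and Mpc1-ps has the larger summed count, 5144 against 3665 for Mpc1.

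Mpc1 had 24.9, 17.7 and 21.2 CPM in type I trained libraries, 22.6, 10.5 and 28.2 CPM in type I untrained libraries, 30.2, 2.00 and 18.8 CPM in type IIb trained libraries and 2.06, 39.0 and 22.5 CPM in type IIb untrained libraries. Type IIb trained replicate 2 and type IIb untrained replicate 1 stood lowest, near 2 CPM, and the groups overlapped in every comparison. With the counts of the pseudogene added, the level was 44.4 ± 3.18 CPM in type I trained, 51.7 ± 22.4 CPM in type I untrained, 40.9 ± 30.4 CPM in type IIb trained and 52.5 ± 45.0 CPM in type IIb untrained libraries (SD, n = 3 each). The fitted log2 difference between type I and type IIb fibres was 0.05 ± 0.95 with them added and 0.13 ± 1.24 for Mpc1 alone.

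Mpc2 (ENSMUSG00000026568, chromosome 1, 165460637 to 165481214, plus strand), the other carrier subunit, had the lowest coefficient of variation in CPM of the 9 genes over the 12 libraries. Within type I libraries it did not have the lowest in CPM. It had 814, 988 and 387 CPM in type I trained libraries, 555, 861 and 289 CPM in type I untrained libraries, 577, 744 and 643 CPM in type IIb trained libraries and 632, 609.8 and 765 CPM in type IIb untrained libraries. Type I untrained replicate 3 and type I trained replicate 3 were lowest, and both extremes of the 12 libraries lay in type I fibres. This coefficient was 29.9% over all 12 libraries, 43.3% in type I libraries, above Mpc1 at 29.7% and Pdhx at 39.7%, and 11.4% in type IIb libraries. The order within type I libraries was reversed on deposited FPKM, where Mpc2 varied less relative to its mean. There Mpc2 had 394 ± 94.5 FPKM, against 38.2 ± 18.1 for Mpc1 and 40.5 ± 21.5 for Pdhx (SD, n = 6 each). Training changed the fitted level by 0.36 ± 0.48 in type I and by -0.03 ± 0.48 in type IIb fibres on the log2 scale, each within 1 SE of 0.

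Pdha1 (ENSMUSG00000031299, chromosome X, 160122209 to 160138413, minus strand) encodes E1 alpha, the subunit that the kinases phosphorylate. It had 48.9, 6.24 and 47.6 CPM in type I trained libraries, 31.2, 64.8 and 24.2 CPM in type I untrained libraries, 6.20, 48.8 and 75.5 CPM in type IIb trained libraries and 3.04, 48.1 and 21.7 CPM in type IIb untrained libraries. One library of each group but type I untrained fell to between 3.04 and 6.24 CPM, while the other libraries held at least 21.7 CPM. Pdha1 shares 16.1% of its exon length with Map3k15 on the opposite strand. None of its fitted differences within a fibre type or training state exceeded 0.84 on the log2 scale, with SEs of at least 1.54.

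Pdhb (ENSMUSG00000021748, chromosome 14, 8165996 to 8173025, minus strand), which encodes E1 beta, was counted at a higher level. It had 858, 292 and 343 CPM in type I trained libraries, 309.7, 320.1 and 203 CPM in type I untrained libraries, 41.1, 324 and 449 CPM in type IIb trained libraries and 95.2, 412 and 357 CPM in type IIb untrained libraries. Type I trained replicate 1 was highest, and the first replicates of both type IIb groups were lowest, the same 2 libraries that had the fewest genes. The log2 ratio of Pdha1 to Pdhb, taken within a library from FPKM (counts scaled to gene length and library total) with a pseudocount of 0.1, was -2.69 ± 0.08 in type IIb trained libraries and -4.04 ± 0.91 in type IIb untrained libraries (SD, n = 3 each). In type I trained libraries it was -4.19 ± 1.33, against -2.92 ± 0.52 in type I untrained libraries. Type IIb trained libraries lay above both the type IIb untrained and the type I trained libraries without overlap, for which the exact two-sided permutation test gave p = 0.1, the smallest that 3 against 3 allows, and 0.3 after adjustment over the 6 comparisons of the ratio.

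Dlat (ENSMUSG00000000168, chromosome 9, 50634633 to 50659780, minus strand), the E2 subunit, stood higher in each type I trained library than in any type I untrained one. It had 366, 210.3 and 152 CPM in type I trained libraries, 115, 139.9 and 78.4 CPM in type I untrained libraries, 248, 239 and 163 CPM in type IIb trained libraries and 111, 171 and 182 CPM in type IIb untrained libraries. The lowest type I trained library, at 152 CPM, stood above the highest type I untrained library, at 139.9 CPM, and the type IIb groups overlapped. The fitted log2 fold change of training was 1.13 ± 0.64 in type I fibres and 0.48 ± 0.64 in type IIb fibres, and 0.81 ± 0.45 over both fibre types (edgeR, Benjamini-Hochberg adjusted p = 1, 0.974 and 1). Without type I trained replicate 1, its highest library, the value in type I fibres was 0.70 ± 0.73. The number of genes with at least 10 counts averaged 8150 ± 3213 in type I trained and 11947 ± 2368 in type I untrained libraries (SD, n = 3 each), and its part in the changes of Dlat and Dld was not tested. Without the 3 libraries with high endothelial markers, which leaves 1 type I untrained library that is assumed to vary like the others, the fitted values in type I fibres were 0.78 ± 1.30 for Dlat and 1.16 ± 1.07 for Dld.

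Dld (ENSMUSG00000020664, chromosome 12, 31331277 to 31351453, minus strand), the E3 subunit, had its lowest levels in type I untrained fibres. It had 894, 296 and 224 CPM in type I trained libraries, 160.3, 206 and 158 CPM in type I untrained libraries, 363, 207 and 295 CPM in type IIb trained libraries and 713, 323 and 217 CPM in type IIb untrained libraries. All 3 type I untrained libraries lay below all type I trained and all type IIb untrained libraries, and type I trained replicate 1 and type IIb untrained replicate 1 stood highest. The fitted log2 fold change of training in type I fibres was 1.43 ± 0.63 (edgeR, Benjamini-Hochberg adjusted p = 1). In untrained mice type I minus type IIb came to -1.26 ± 0.62 on the log2 scale (edgeR, Benjamini-Hochberg adjusted p = 0.313). These 2 values share the type I untrained libraries. On deposited FPKM the type I trained libraries again lay above the untrained ones, but the type I and type IIb untrained libraries overlapped.

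For the training effect on Dld, type I minus type IIb fibres came to 1.96 ± 0.88 on the log2 scale, which was not called (edgeR interaction contrast, Benjamini-Hochberg adjusted p = 0.511). The effect itself was 1.43 ± 0.63 in type I fibres, against -0.53 ± 0.62 in type IIb fibres. Single libraries carried much of it: without type I trained replicate 1, which held 894 CPM, the effect in type I fibres was 0.57 ± 0.64 and the difference 1.11 ± 0.86. Without type IIb untrained replicate 1 the difference was 1.34 ± 0.86.

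Pdhx (ENSMUSG00000010914, chromosome 2, 103021075 to 103073513, minus strand), the E3-binding subunit, showed no separation in any comparison. It had 36.6, 54.5 and 80.9 CPM in type I trained libraries, 57.0, 86.5 and 29.6 CPM in type I untrained libraries, 87.9, 46.4 and 105 CPM in type IIb trained libraries and 21.04, 96.2 and 94.0 CPM in type IIb untrained libraries. Each group reached from low to high values, with the lowest library in type IIb untrained and the highest in type IIb trained fibres. The fitted changes with training were -0.01 ± 1.04 in type I and 0.18 ± 1.04 in type IIb fibres on the log2 scale.

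Pdk2 (ENSMUSG00000038967, chromosome 11, 95026258 to 95041354, minus strand) is a kinase of the complex known from many tissues. It had 40.4, 52.1 and 26.2 CPM in type I trained libraries, 80.9, 109 and 52.5 CPM in type I untrained libraries, 32.3, 46.6 and 226 CPM in type IIb trained libraries and 13.9, 87.7 and 53.4 CPM in type IIb untrained libraries. The type I trained libraries all lay below the type I untrained ones, with the highest trained library at 52.1 CPM and the lowest untrained library at 52.5 CPM. Type IIb trained replicate 3, one of the 3 libraries with high endothelial markers, exceeded every other library. The fitted log2 fold change of training was -1.03 ± 1.10 in type I fibres and 0.98 ± 1.10 in type IIb fibres (edgeR, Benjamini-Hochberg adjusted p = 1 and 0.945).

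Pdk4 (ENSMUSG00000019577, chromosome 6, 5483351 to 5496309, minus strand), the kinase known for its induction in fasting muscle, spanned the widest range. It had 1000.3, 73.0 and 974 CPM in type I trained libraries, 362, 245 and 281 CPM in type I untrained libraries, 116, 8.20 and 46.7 CPM in type IIb trained libraries and 0, 63.8 and 38.6 CPM in type IIb untrained libraries. In untrained mice every type I library lay above every type IIb library. In trained mice type I replicates 1 and 3 stood far above the rest, whereas replicate 2 lay below type IIb trained replicate 1. Type IIb untrained replicate 1 had 0 counts of Pdk4, where 3 counts, the limit that a count of 0 allows, would be 0.325 CPM.

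For Pdk4 the fitted log2 difference between type I and type IIb fibres was 3.58 ± 1.51 in trained mice (edgeR, Benjamini-Hochberg adjusted p = 0.614). In untrained mice the same difference was 3.11 ± 1.48 (edgeR, Benjamini-Hochberg adjusted p = 0.296). Training gave 1.21 ± 1.38 in type I and 0.74 ± 1.37 in type IIb fibres, with a difference between them of 0.46 ± 1.93, smaller than its SE. Type I trained replicates 1 and 3, with the highest Pdk4 of all 12 libraries, had summed endothelial markers of 0.722 and 0.0718 CPM. Their mural markers summed to 44.9 and 58.8 CPM and their fibroblast markers to 115 and 38.7 CPM. Erythroid markers summed to 89.9 and 37.4 CPM and macrophage markers to 0.310 and 48.5 CPM in the same order. The part of other cell types in the Pdk4 level of these libraries was not tested. Without the 3 libraries with high endothelial markers, which leaves 1 type I untrained library, the difference between the fibre types over both training states was 3.05 ± 1.93. In the other 22 of 23 settings the unadjusted p was under 0.05. Of these, 1 only added the counts of Mpc1-ps to Mpc1, which leaves those of Pdk4 as they were. Another 12 left out 1 library each, so the settings are not independent of each other. The 5 adipocyte markers summed to 0 to 186 CPM in type I trained, 37.3 to 1030 CPM in type I untrained, 0 to 109.6 CPM in type IIb trained and 0 CPM in type IIb untrained libraries, with Adipoq and Plin1 at 0 in all 12, and their part in the difference of Pdk4 was not tested.

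Across those 23 settings the log2 difference of Pdk4 ran from 3.05 to 4.89, and the adjusted p was under 0.05 in 6. Leaving out each library in turn gave 3.06 to 3.88 and Benjamini-Hochberg adjusted p of 0.0294 to 0.271 by edgeR. The call was gained without type IIb untrained replicate 1, the library with 0 counts. The median of all genes was 0.60 in the main test, 0.72 with RLE scaling, 0.76 with limma on log2(FPKM + 1) and 1.47 with limma on log2(FPKM + 0.1), and relative to that median Pdk4 was higher by 1.88 to 3.51 over the settings.

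**Figure D3:**
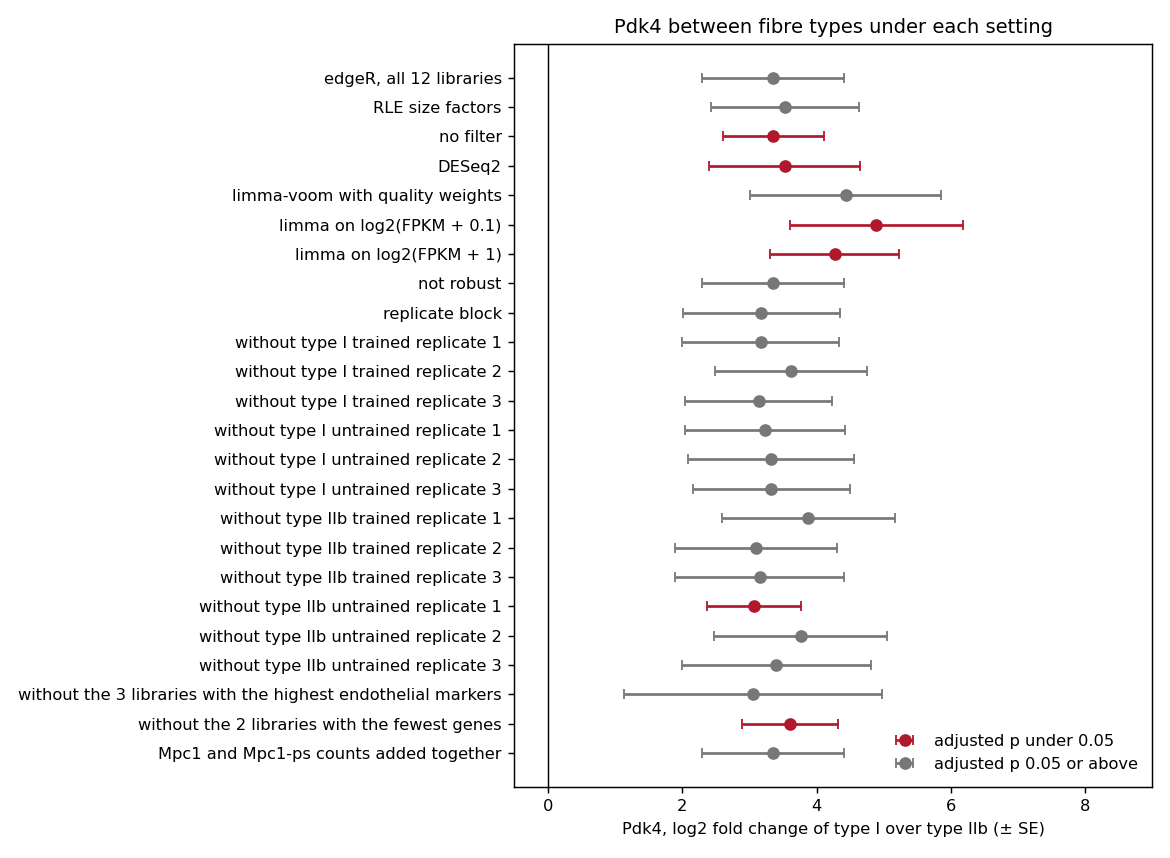
Fitted log2 fold change of Pdk4, type I over type IIb, over both training states, with SE bars, under the main test (top) and 23 other settings. Red points have a Benjamini-Hochberg adjusted p under 0.05 and grey points do not; all points lie at or above 3.05.

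Pdk4 took the larger part of the kinase level in 4 of 6 type I libraries. Its share of the summed FPKM of Pdk1, Pdk2, Pdk3 and Pdk4 was 79.3, 28.5 and 84.4% in the type I trained libraries, 57.5, 49.0 and 64.5% in the type I untrained ones, 48.5, 8.21 and 10.7% in the type IIb trained ones and 0, 27.0 and 31.2% in the type IIb untrained ones. The untrained fibre types did not overlap, and in trained mice type I replicate 2 lay below type IIb replicate 1. The share averaged 60.5 ± 20.5% in type I libraries, against 20.9 ± 17.9% in type IIb libraries (SD, n = 6 each). The difference of 39.6 percentage points had p = 0.00866 by two-sided exact permutation of 6 against 6 libraries, and 0.0519 after Benjamini-Hochberg adjustment over 6 comparisons. Without type I trained replicate 2, the type I library with the lowest share, it was 46.0 points, with an adjusted p of 0.0260 by the same exact permutation test. The other 12 settings were raw counts in place of FPKM and each other library left out. They gave 34.8 to 45.1 points and adjusted p of 0.0519 to 0.104 by that test. The log2 ratio of Pdk4 to Pdha1, the gene of its substrate, ran from 1.56 to 3.997 in type I libraries, against -2.90 to 3.85 in the 5 type IIb libraries with any count of Pdk4. Without the library at 0 the means differed by 3.09, with an exact permutation p of 0.130 after the same adjustment.

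**Figure D4:**
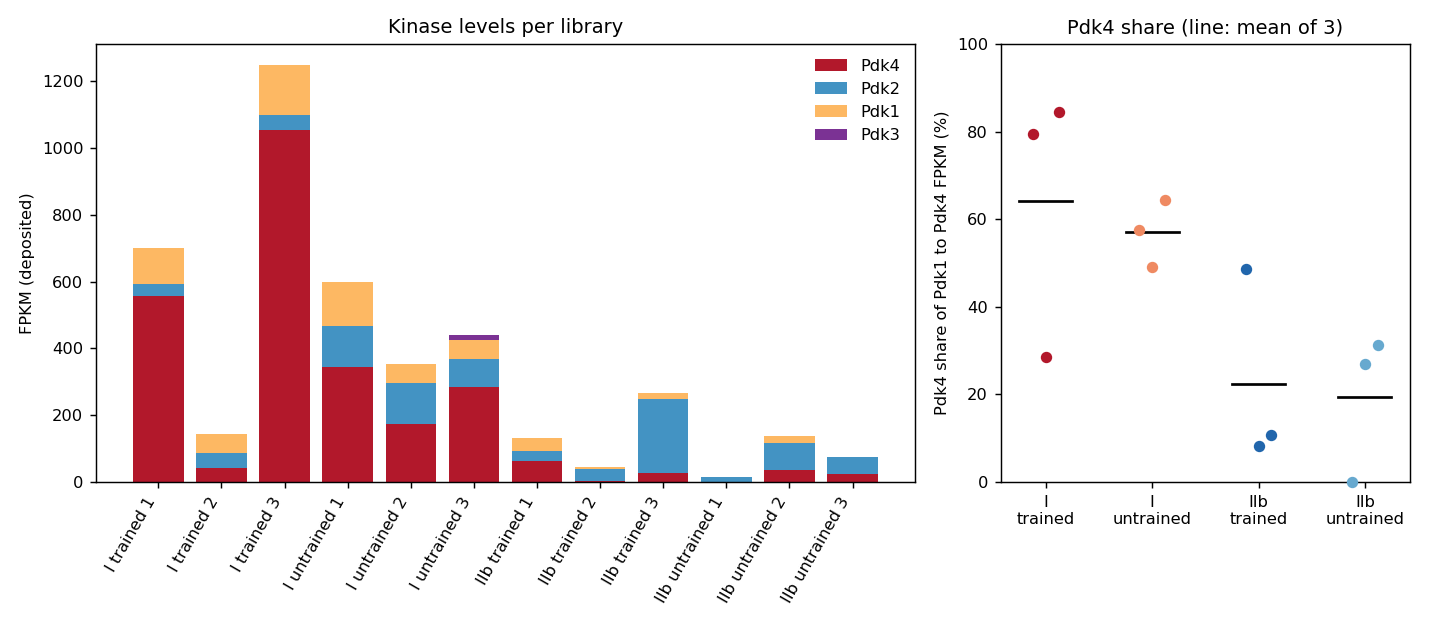
Left, deposited FPKM of the 4 kinases stacked per library (linear axis from 0); right, the share of Pdk4 in their sum in percent, with the mean of 3 libraries as a line. The share of Pdk4 is at least 57.5% in 4 of 6 type I libraries and at most 48.5% in type IIb libraries.

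Of the kinases outside the set, Pdk1, which also responds to low oxygen, had 237, 121 and 166 CPM in type I trained libraries, 168, 96.6 and 68.1 CPM in type I untrained libraries, 87.0, 21.1 and 37.2 CPM in type IIb trained libraries and 0, 40.5 and 0.461 CPM in type IIb untrained libraries. Type I libraries lay above type IIb libraries in trained and in untrained mice, and over both states only type I untrained replicate 3 lay below a type IIb library, type IIb trained replicate 1. The log2 fold change over both states was 2.43 ± 1.06 (edgeR, Benjamini-Hochberg adjusted p = 0.241). With all 12 libraries it was called by limma-voom with quality weights (4.46, adjusted p = 0.0157), by limma on log2(FPKM + 0.1) (4.43, adjusted p = 0.0365) and by limma on log2(FPKM + 1) (3.53, adjusted p = 0.0189). By edgeR it was 5.35 without type IIb untrained replicate 2 (Benjamini-Hochberg adjusted p = 0.00803), the library that held 503 of the 508 counts of Pdk1 in its group. In the other 19 settings, DESeq2 among them, Pdk1 was not called. There the log2 fold change was 2.15 to 2.81, with adjusted p of 0.144 to 0.578 by edgeR or DESeq2. Pdk3 did not pass the filter and had 391 counts in type I untrained replicate 3 and at most 21 in any other library. The phosphatase genes Pdp1 and Pdp2 and the phosphatase regulator Pdpr were not called; their fitted differences between fibre types over both states were -0.999 ± 0.70, 1.05 ± 1.55 and -0.70 ± 1.68.

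Mean levels per unit of gene length differed among the 9 genes. Mean FPKM over the 12 libraries was 353 ± 82.1 for Mpc2, 293 ± 162 for Pdhb, 261 ± 152 for Dld, 218 ± 315 for Pdk4 and 148 ± 46.5 for Dlat (SD, n = 12). It was 73.8 ± 57.9 for Pdk2, 38.6 ± 18.9 for Pdhx, 31.7 ± 21.9 for Pdha1 and 31.3 ± 19.1 for Mpc1. The median of Pdk4 was 52.4 FPKM, against 139 for Dlat. Neighbours in the order of means differed by less than the larger of their SDs, except Dlat and Pdk2. The order also depends on the length used: with the merged exon length of GENCODE M21, which is 2.25 to 4.16 times the deposited length for these genes, Pdk4 came first, ahead of Dld, Pdhb and Mpc2. On that length Dlat had a mean of 35.6 and Pdk2 of 21.9, below the 86.7 of Mpc2.

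In the training comparisons no gene of the set was called by edgeR, DESeq2 or any of the other settings, which does not show that the levels were alike. In type I fibres 0 of 9 were called against 0% of all genes; 1 of 9 (Dld) had an unadjusted p under 0.05, against 2.94% of all genes. Groups without overlap were seen for 3 of 9 (Dlat and Dld higher, Pdk2 lower), against 11.7% of all genes. In type IIb fibres 0 of 9 were called against 0%, 0 had an unadjusted p under 0.05 against 8.21%, and 0 were without overlap against 4.73%. The median log2 fold change of the 9 genes was 0.36 in type I fibres and 0.18 in type IIb fibres, beside -0.28 and 0.36 over all genes tested. Over both fibre types 0 of 9 were called against 0% of all genes, and 0 had an unadjusted p under 0.05 against 3.82%. For the difference between the training effects 0 of 9 were called against 0%, with 1 of 9 (Dld) at an unadjusted p under 0.05 against 8.94%.

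Between the fibre types in trained mice 0 of 9 were called by edgeR against 0.536% of all genes, and 1 of 9 (Pdk4) had an unadjusted p under 0.05 against 8.03%. In untrained mice 0 of 9 were called against 0.46%, and 0 had an unadjusted p under 0.05 against 17.5%. DESeq2 called none of the 9 in either training state. Of the 11747 genes tested it called 208 higher and 138 lower in trained mice, and 963 higher and 68 lower in untrained mice. Groups without overlap numbered 0 of 9 in trained mice, against 10.5% of all genes, and 2 of 9 in untrained mice (Pdk4 higher, Dld lower), against 27.7%. On deposited FPKM Mpc2 was higher without overlap in trained mice, and in untrained mice Pdk2 and Pdk4 were higher while Dld overlapped. The share of all genes without overlap was not taken on FPKM, so these cases have no background to be set against. The median log2 fold change of the 9 genes was 0.16 in trained and -0.05 in untrained mice, while that of all genes was 0.21 and 0.85.

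**Figure D5:**
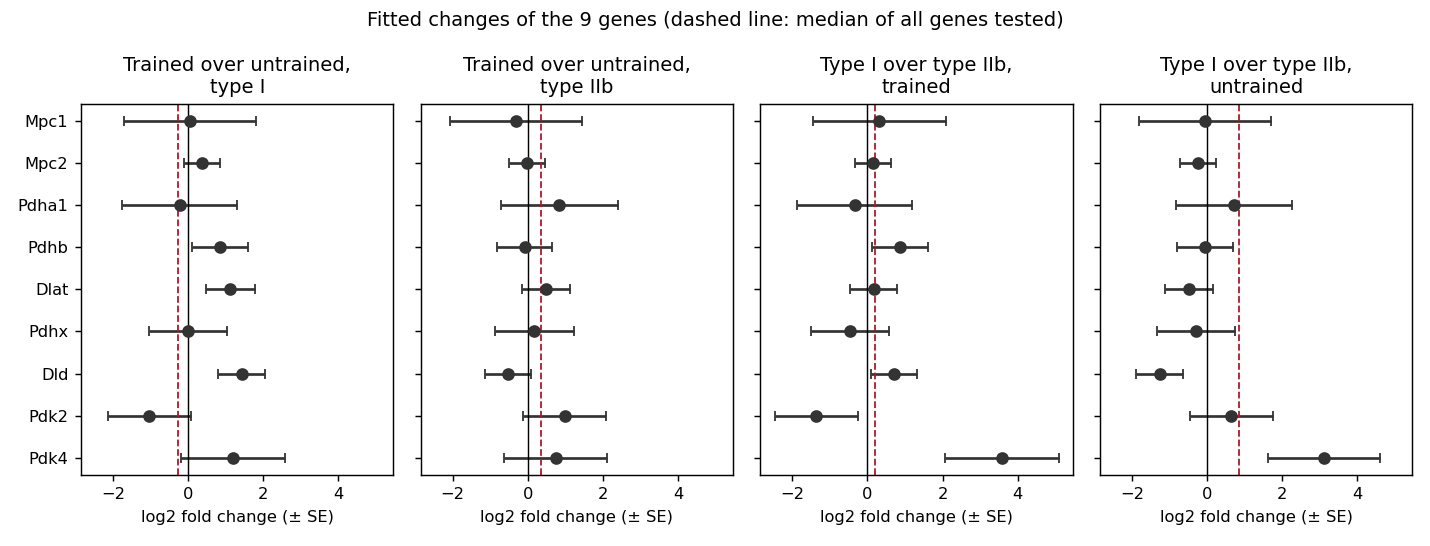
Fitted log2 fold change (points, edgeR) with SE bars for the 9 genes in 4 comparisons; the dashed line is the median of all genes tested. Pdk4 lies above 3 in both fibre type comparisons, and the other 8 genes lie between -1.36 and 1.43 in all 4.

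Of 37 genes listed around the set, 34 were tested. Over both training states 2 of 34 were called higher and 4 lower in type I fibres by edgeR, against 1.93% of all genes called in either direction. In trained mice 1 was called higher and 3 lower, against 0.536%, and in untrained mice 1 of each, against 0.46%. None of the 34 was called for training, against 0% of all genes in either fibre type; in type I fibres 3 (1 higher, 2 lower) had an unadjusted p under 0.05, against 2.94%, and in type IIb fibres 2 (both higher), against 8.21%. The called genes lay in the list of pyruvate supply and other fates (5 of 8 over both states; median log2 fold change -1.15, beside 0.60 for all genes) and in that of fatty acid genes (1 of 8; median 2.39). An unadjusted p under 0.05 by edgeR over both states was reached by 6 of 8 and 4 of 8 of these, against 16.9% of all genes. The lists were not tested against each other. No gene was called among the 4 tested other kinases and phosphatases, the 3 lipoate attachment genes, the 5 of the next step and sister complexes, and the 6 regulators tied to Pdk4.

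Ldha and Ldhb, the muscle and heart forms of lactate dehydrogenase, were split between the fibre types. Ldha had 62.6, 239 and 133 CPM in type I trained libraries, 341, 211 and 173 CPM in type I untrained libraries, 1643, 1409.8 and 2866 CPM in type IIb trained libraries and 1093, 2833 and 2844 CPM in type IIb untrained libraries. All type I libraries lay below all type IIb libraries, with a log2 fold change of -3.50 ± 0.40 over both states (edgeR, Benjamini-Hochberg adjusted p = 2.64e-05). Ldhb had 1363 to 4924 CPM in type I libraries and 0.182 to 16.7 CPM in type IIb libraries, among which type IIb trained replicate 3 held 231 counts and the others 1 to 8 (adjusted p = 0.00105, same test).

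Pkm, which makes pyruvate, had 228 to 613 CPM in type I and 913 to 5202 CPM in type IIb libraries (log2 fold change -2.05 ± 0.36, edgeR, Benjamini-Hochberg adjusted p = 0.00316). Slc16a3, a lactate exporter, had 0 to 4.74 CPM in type I and 42.2 to 261 CPM in type IIb libraries (adjusted p = 0.000255). Gpt2, the mitochondrial alanine aminotransferase, had 0.118 to 105 CPM in type I and 194 to 503 CPM in type IIb libraries (-4.37 ± 0.91, adjusted p = 0.0135). Fabp3, a fatty acid carrier of the cytosol, had 553 to 2342 CPM in type I and 15.1 to 205 CPM in type IIb libraries (3.53 ± 0.60, adjusted p = 0.00218). For each of these 4 genes the lowest library of the higher fibre type stood above the highest library of the other. Without the 3 libraries with high endothelial markers the log2 fold changes of Slc16a3, Gpt2 and Fabp3 over both states were -8.52, -4.69 and 3.62. The calls of these 3 genes were lost in that smaller fit, which leaves 1 type I untrained library. Whether endothelial content or the smaller number of libraries lay behind the loss was not tested. The call of Fabp3 was also lost by limma-voom with quality weights (3.98, adjusted p = 0.0630).

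For the 3 genes of the set with the highest mean CPM, the gene most like each over the 12 libraries was found by Pearson's r of log2(CPM + 1). For Mpc2 it was Atp5o, a subunit of ATP synthase, with r = 0.925, and r was 0.982 within type I and 0.410 within type IIb libraries. For Dld it was Pnpla8, a phospholipase, with r = 0.895. For Pdhb it was Gm6123, a processed pseudogene of Pdhb with 97.0% identity over 1079 bases, with r = 0.968; it held 287 counts over all libraries, against 52500 for Pdhb. All these points share library depth and the number of genes detected. Within the complex, r over the 12 libraries was highest for Pdha1 with Pdhb, at 0.746, and for Dlat with Dld, at 0.498. It was lowest for Pdhx with Dld, at -0.365, and for Pdha1 with Dld, at -0.331.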

How the data were processed

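RNA was sequenced after SMART-Seq HT amplification and Nextera XT library preparation, per the labels' protocols. The deposited series table gives raw read counts in whole numbers, and the deposited FPKM tables hold values that the authors scaled to gene length and library total. Per the submitters' processing notes, TopHat2 and mm10 were used; the counting program is not given in the sources used here. FPKM matched count over length and total within 0.1% for 94.5% of nonzero values. The deposited length was the whole part of the mean GENCODE M21 transcript length for 98.6% of 55141 features. The tables held 0 unused sample columns.

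Counts were tested in R 4.3.3 with edgeR 4.0.16 (quasi-likelihood, robust, TMM), in 1 fit of 12 libraries with 4 group means, over genes passing a count minimum of 10 and a total minimum of 15, with Benjamini-Hochberg adjustment over the 11747 genes and a threshold of 0.05. SE is the absolute log2 fold change over the square root of F. Alternatives were DESeq2 1.42.0, limma 3.58.1 (voom, and log2 FPKM with pseudocounts of 0.1 and 1), RLE scaling, no filter, only the groups compared, no robust prior, a replicate block and each library left out; leaving out libraries high in endothelial markers or low in genes, merged exon lengths and Mpc1 with Mpc1-ps were chosen after seeing the data. Summed markers are CPM of library totals without TMM. The floor of 3 counts covers counting error only, since reads carry no molecular identifiers. The SDs and SEs given with ± include the spread between libraries. Ratios were tested by exact permutation. Only the gene tests of training in type I fibres and of fibre type over both states were checked on simulated data. Most simulated log2 changes of 3 were not recovered there.

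The 9 genes and all lists were chosen with earlier results of these data known. All 9 genes are named, and a gene of the surrounding lists is named when called or when it is Pdk1, Pdk3, Pdp1, Pdp2 or Pdpr; the lists cover other kinases and phosphatases, lipoate attachment, pyruvate supply and other fates, the next step and sister complexes, regulators tied to Pdk4 and fatty acid genes. Separate animals are not named in the labels. The p-values thus measure spread between samples only, and this may be technical. Library totals ranged from 8026397 to 24995288 counts.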

Additional observations from a re-analysis of the deposited data

How the results depend on the processing

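The count of called genes among the 9 was 0 in each of the 7 comparisons and stayed at 0 in every setting for 6 of them. Between the fibre types over both training states it was 1 (Pdk4) with no filter, with DESeq2, with limma on log2(FPKM + 0.1) and on log2(FPKM + 1), and without the 2 libraries with the fewest genes (adjusted p = 0.00174, 0.0209, 0.0392, 0.0150 and 0.0142), and 0 to 1 with each library left out. The share of Pdk4 among the kinases differed by 34.8 to 46.0 percentage points with each library left out. Of 63 pairs of a gene and a comparison, 39 had the opposite sign in at least 1 setting. Over 18 same-numbered pairs of libraries, r of deviations from the group means was -0.126 to 0.177, with 4 over 0.1. By mean r, 7 of 12 libraries correlated best with their own number. No range was taken for pairs of different number, so these values cannot decide whether the numbers pair the libraries. With the replicate block the count called stayed at 0, with 3.18 for Pdk4 (edgeR, adjusted p = 0.207). Over all genes edgeR called 0 for training in either fibre type, while DESeq2 called 1 higher and 58 lower in type I and 307 higher and 57 lower in type IIb fibres; between fibre types over both states edgeR called 130 higher and 97 lower, DESeq2 916 and 182, and limma 483 and 79 on log2(FPKM + 0.1). In single training states the calls of Ldhb were lost in 10 settings in untrained and 13 in trained mice, those of Pkm in trained mice in 7 and those of Ldha in untrained mice in 2; the cause was not tested. Mpc1 and Pdha1 had the fewest counts of the 9 genes, 3665 and 6073 over all 12 libraries, and the part of depth in their spread was not tested.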

Other observations

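The levels of the 9 genes were set against the number of genes detected in a library, over 12 libraries and 9 relations tested by permutation. Pdha1 had Pearson r = 0.667 (permutation p = 0.0192, Benjamini-Hochberg adjusted 0.0864) and Spearman rho = 0.406 (permutation p = 0.193, adjusted 0.289), and r was 0.630 without type IIb untrained replicate 1 and type I untrained replicate 3, the 2 libraries farthest from the median. Pdk4 had r = 0.614 (permutation p = 0.0308, adjusted 0.0925) and rho = 0.601 (permutation p = 0.0430, adjusted 0.193); r was 0.348 without those 2 libraries, 0.149 within type I and 0.519 within type IIb fibres. Dld had r = -0.658 (permutation p = 0.0176, adjusted 0.0864) and rho = -0.615 (permutation p = 0.0368, adjusted 0.193), with r = -0.427 without them. Pdk2 had r = 0.587 (permutation p = 0.0420, adjusted 0.0944) and rho = 0.455 (permutation p = 0.139, adjusted 0.289), with r = 0.499 without them. Within type I libraries r was -0.925 for Dlat, -0.858 for Mpc2, -0.837 for Dld, -0.704 for Pdhb and between 0.0434 and 0.269 for the other genes. Within type IIb libraries it was 0.966 for Pdk2, 0.917 for Pdha1, 0.811 for Pdhb, 0.687 for Pdhx, 0.477 for Mpc1, -0.509 for Dld, 0.0834 for Dlat and 0.0643 for Mpc2. No relation over the 12 libraries passed an adjusted p of 0.05, and their part in the comparisons was not tested.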
